A study of Mus musculus with 32 samples.

Results

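Rbmx, Rbm3, Rbm10, Hnrnph2 and Nono are 5 X-linked genes for proteins that bind RNA, most of them with a part in pre-mRNA splicing. They were chosen by name and were all listed in each of the 4 expression tables, out of up to 1006 X-linked genes in a table, and all 5 passed the filter on low values in every table. The cells were XEN cells, stem cells that model the extraembryonic endoderm. Their parents were of the strains 129S1/SvImj and JF1/Ms, so that transcripts of the active X chromosome (Xa) and of the inactive X chromosome (Xi) can be told apart by sequence differences. RNA of 32 samples in 12 groups was sequenced after poly(A) capture by the Smart-seq2 protocol, a full-length method that does not mark strand, and the tables give 1 FPKM value (fragments per length of transcript and per sequenced total) per gene, group and allele.

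The first table holds WT cells (3 samples), XistpA (4 samples), XRR KO (2 samples, 1 from each of 2 clones) and XRRa KO (3 samples). The second holds XRRb XaKO, XRRb XiKO, XRRc XaKO and XRRc XiKO, with 2 samples each, where the names state whether the change lies on Xa or on Xi. The labels do not spell out XistpA or XRR, and they name no clones for any line but XRR KO and the Rad21 degron. The third table holds Rad21-degron cells treated with DMSO or with dTAG, 4 samples each from 2 clones, and the fourth Ctcf-degron cells treated with DMSO or with dTAG for 48 h, 2 samples each. In the degron lines, both the DMSO and the dTAG samples carry the tagged protein, and dTAG is a compound that directs a tagged protein to degradation. Rad21 is a subunit of cohesin, the ring complex that folds chromatin into loops, and CTCF is the DNA-binding protein at which many of those loops end. The column names of both degron tables give the treatment and the allele but not the line. The Rad21 table is named in the descriptions of its samples. The other degron table carries the Ctcf degron in its own name, and no description of the other samples names it.

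The samples of a group were merged into its column, so there is no spread between replicates, no standard deviation and no test in what follows, and the read depth behind a value is unknown. Differences are given on the scale of log2(FPKM + 0.5), and a gene is said to have risen or fallen only where that difference reached 1. Genes were counted where Xa plus Xi averaged at least 1 FPKM over a table's columns, which left 270, 261, 247 and 277 genes in the 4 tables in the order above. FPKM is per length, so levels are compared between genes of a column, and between columns only within a table. Markers of endoderm that lie on autosomes were not analysed here. Of the X-linked genes used to check the lineage, WT cells gave 115 FPKM on Xa for Cited1, 19.4 FPKM for Gpc3 and 2.87 FPKM for Amot. Their levels were not stable within a table. Over the 4 groups of the first table, Cited1 ran from 66.3 to 126 FPKM on Xa, Gpc3 from 8.54 to 37.3 FPKM and Amot from 2.64 to 3.52 FPKM. In Rad21-degron cells, Cited1 was at 59.5 FPKM with DMSO and 12.7 FPKM with dTAG. Xist, the RNA that coats the inactive X, was at 15.5 FPKM on Xi in WT, at 0 in XistpA and at 1.18 FPKM in XRR KO, and the other 9 groups had between 6.72 and 35.6 FPKM. In the 11 groups with Xist on Xi, 0 to 1.87% of its signal was assigned to Xa. The highest share was in XRR KO, where its Xi level was the lowest of these groups.

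In female mammals 1 X chromosome per cell is silenced, through Xist RNA and the repressive chromatin that follows it, and most genes on it are then read from the active copy alone. In the extraembryonic endoderm of the mouse the silent chromosome is the paternal one. A minority of genes escape silencing. RNA-binding proteins of this kind act on transcripts in the nucleus, where they take part in choosing exons, packaging RNA and holding it in nuclear bodies. Rbmx (hnRNP G) is a nuclear RNA-binding protein that takes part in exon choice. Rbm10 is a splicing regulator that favours skipping of many exons. Hnrnph2 belongs to the hnRNP H/F family, which binds runs of G. Nono is a core protein of paraspeckles, nuclear bodies built on a long noncoding RNA. Rbm3 is a small glycine-rich protein induced by mild cold that also acts in translation.

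On the active X, Rbm3 was the most abundant of the 5 and Rbm10 the least abundant in WT cells. WT levels on Xa were 157.5 FPKM for Rbm3, 81.9 FPKM for Nono, 27.1 FPKM for Hnrnph2, 18.8 FPKM for Rbmx and 9.63 FPKM for Rbm10, so that Rbm3 stood 16.4 times above Rbm10. The same order, Rbm3 over Nono over Hnrnph2 over Rbmx over Rbm10, was found in 10 of the 12 groups. Both exceptions were the Ctcf-degron groups, where Rbm10 stood above Rbmx, and with DMSO Nono at 56.0 FPKM also stood above Rbm3 at 51.9 FPKM. Without replicate values it cannot be said which neighbours in this order differ beyond their spread. Ranked among all tested genes of a column, Rbm3 lay between ranks 13 and 21, Nono between 19 and 33, Hnrnph2 between 56 and 82, Rbmx between 68 and 165 and Rbm10 between 100 and 175.

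**Figure D1:**
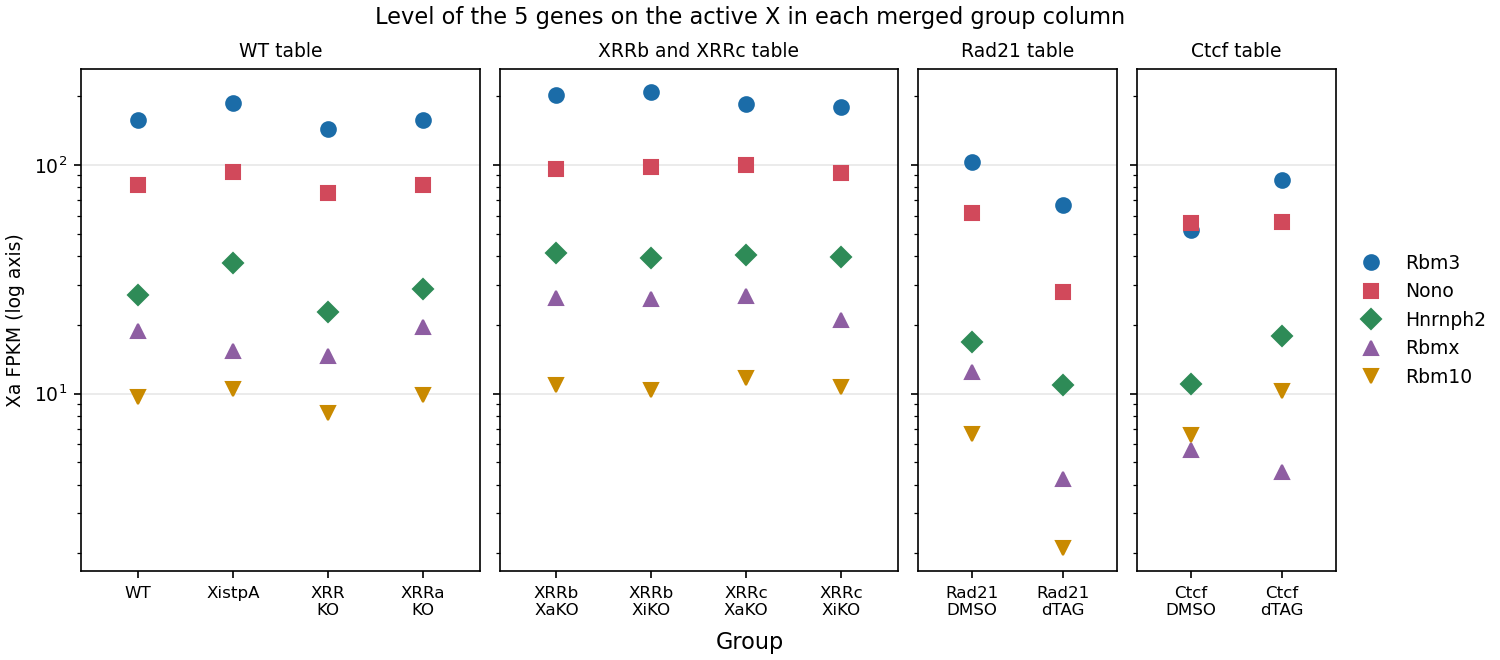
Level of each of the 5 genes on the active X (FPKM, log axis) in the 12 groups, set apart by table, with 1 merged value per point. Rbm3 is the highest in 11 of the 12 groups and falls below Nono in Ctcf-degron cells with DMSO, and Rbmx lies below Rbm10 in both Ctcf-degron groups.

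In the lines without a degron, no difference of the 5 genes on the active X reached the size rule. Rbm3 on Xa was at 187 FPKM in XistpA, 143 FPKM in XRR KO and 157.5 FPKM in XRRa KO, and at 203, 209, 185 and 180 FPKM in XRRb XaKO, XRRb XiKO, XRRc XaKO and XRRc XiKO. Nono was at 92.98, 75.4 and 82.2 FPKM in the first 3 of these groups and between 92.2 and 99.7 FPKM in the other 4. Hnrnph2 was at 37.4, 22.7 and 28.7 FPKM, then between 39.2 and 41.2 FPKM. For these 3 genes, and for Rbm10, XRR KO was the lowest of the 4 columns in its table and XistpA the highest. Rbmx was at 15.4 FPKM in XistpA, 14.6 FPKM in XRR KO and 19.5 FPKM in XRRa KO, and at 26.2, 25.9, 26.8 and 21.0 FPKM in the second table, where XRRc XiKO was the low column. Rbm10 was at 10.5, 8.23 and 9.91 FPKM, then between 10.4 and 11.7 FPKM.

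In XistpA, Hnrnph2 had the largest difference from WT, 0.46 on the log2 scale and at the 96.7th percentile of all tested genes, and Rbmx was the one with a negative difference, -0.28. In this comparison 4.44% of the 270 tested genes changed on Xa in either direction. In XRR KO the 5 differences lay between -0.36 for Rbmx and -0.12 for Nono, against a median of -0.19 over all tested genes, and 4.81% of genes changed. When the columns were scaled to the same median level, or the differences centred on the median difference over all genes, those of Rbm3 and Nono in XRR KO changed sign and lay between 0.02 and 0.07. In XRRa KO the 5 differences lay between 0.00 and 0.09, where 0.741% of genes changed.

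For XRRb and XRRc, the line with the change on Xi was set against the line with the change on Xa. The 5 differences on Xa lay between -0.08 and 0.04 for XRRb, where 3.07% of the 261 tested genes changed. For XRRc they lay between -0.34 for Rbmx, at the 4.6th percentile of all tested genes, and -0.03 for Hnrnph2, where 2.30% changed. The XaKO lines of XRRb and XRRc were also set side by side. They carry different changes, so effects of the changes and differences between lines cannot be told apart. Between those lines the largest size among the 5 genes on Xa was 0.13, and 1.92% of genes changed.

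In Rad21-degron cells with dTAG, the levels of all 5 genes on the active X were lower than with DMSO, and those of Rbmx, Rbm10 and Nono fell by the size rule. Rbmx went from 12.4 to 4.22 FPKM, a log2 difference of -1.45. Rbm10 went from 6.65 to 2.104 FPKM, a log2 difference of -1.46. Nono went from 61.6 to 27.9 FPKM, a log2 difference of -1.13. Rbm3 went from 103 to 67.1 FPKM and Hnrnph2 from 16.8 to 10.9 FPKM, with differences of -0.61 and -0.60 that did not reach the rule. The lineage genes were also lower with dTAG. Cited1 went from 59.5 to 12.7 FPKM on Xa (log2 difference -2.19), Gpc3 from 24.4 to 12.3 FPKM (-0.96) and Amot from 2.43 to 1.56 FPKM (-0.51), and their part in the result was not tested.

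Lower values on Xa were common in this comparison. Of the 247 tested genes, 164 had a negative difference (66.4%) and 37 fell by the size rule (15.0%). The median over all of them was -0.26, and the median over the 5 genes was -1.13. Scaling the columns to the same median gave -1.07 for Rbmx, -1.10 for Rbm10 and -0.72 for Nono, and centring the differences on their median over all genes gave -1.19, -1.20 and -0.87, so that Nono no longer passed. Rbm3 and Hnrnph2 were at -0.20 with equal medians and at -0.36 and -0.34 after centring. Over all genes, the split of 16 higher and 37 lower became 26 and 19 with equal medians and 22 and 26 after centring. As a share of the summed Xa signal of the 233 genes tested in every table, Rbmx went from 0.163% to 0.0684%, Rbm10 from 0.0871% to 0.0341% and Nono from 0.807% to 0.451%. The ratio of Rbm3 to Rbmx, which no scaling can alter, went from 8.29 to 15.9. In these bulk samples, fewer cells that express a gene and less RNA per cell cannot be told apart.

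**Figure D2:**
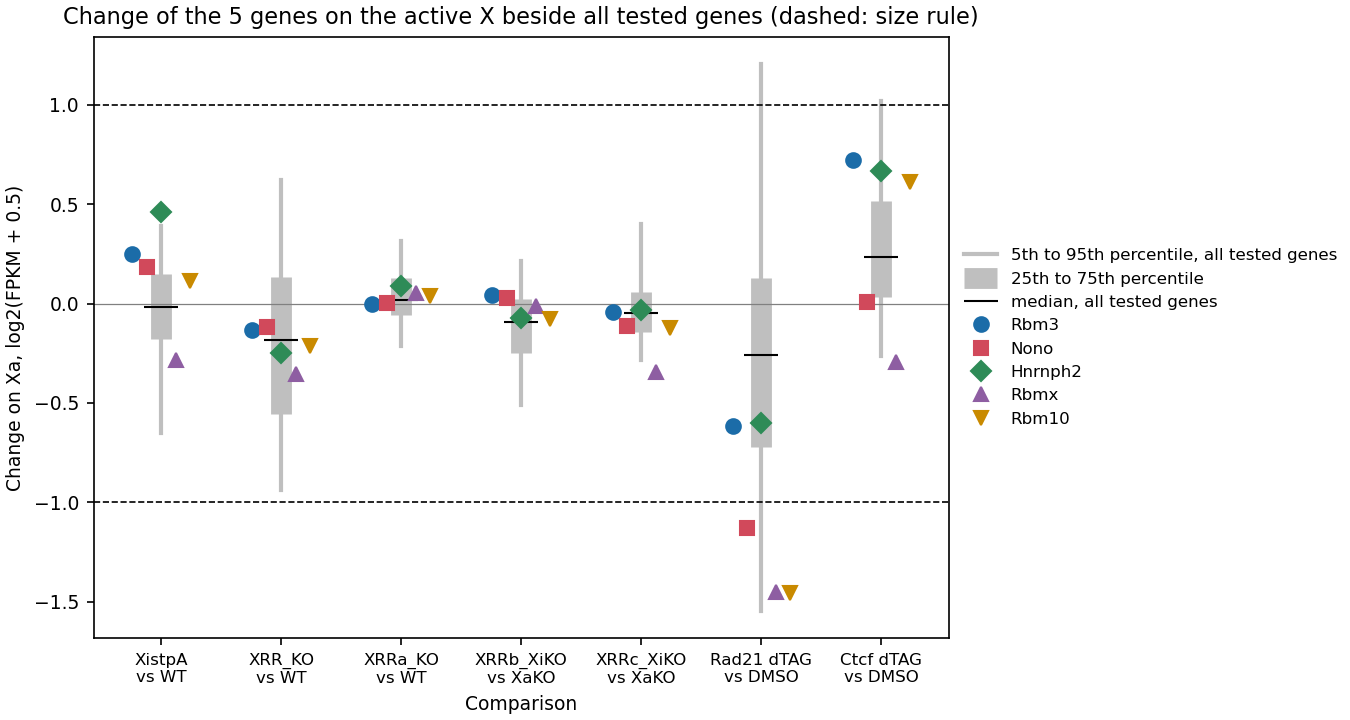
Difference in log2(Xa FPKM + 0.5) of the 5 genes in each of the 7 comparisons, 1 merged value per group, with dashed lines at the size rule of 1. Grey bars span the 25th to 75th percentile and grey lines the 5th to 95th percentile of all tested genes, and the black tick is their median. In the Rad21 degron with dTAG, Rbmx (-1.45), Rbm10 (-1.46) and Nono (-1.13) pass the lower line, and no other point reaches either line.

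Promoter sequence is shown for 2 of the genes that fell in this comparison, Rbmx and Nono. RefSeq (GRCm38.p6) gave a window of 250 bases before the start of Rbmx, Rbm10, Hnrnph2 and Nono. Each was searched on both strands for CCAAT (the NF-Y motif), GGGCGG (the Sp motif), ATGGCG (the YY1 motif) and a core motif of CTCF. The 250 bases before Rbmx, chrX:57393037-57393286 on the minus strand, hold 1 CCAAT, 71 bases before the start. The first 154 bases of the window of Nono, chrX:101429401-101429554 on the plus strand, stop where an annotated exon of Nono itself begins. They hold the first of the 2 CCAAT matches of this window, which lie 109 and 36 bases before the start. Both sequences are written 5′ to 3′ on the gene's strand, with the motif in capitals.
Rbmx: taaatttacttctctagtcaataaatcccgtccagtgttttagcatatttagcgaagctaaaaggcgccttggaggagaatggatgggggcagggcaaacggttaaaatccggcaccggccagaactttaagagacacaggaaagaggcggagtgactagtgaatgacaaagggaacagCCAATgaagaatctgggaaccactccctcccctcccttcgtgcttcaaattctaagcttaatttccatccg
Nono: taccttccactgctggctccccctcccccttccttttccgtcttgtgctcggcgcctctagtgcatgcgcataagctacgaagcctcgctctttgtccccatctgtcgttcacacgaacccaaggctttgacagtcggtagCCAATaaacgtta
The window of Nono also holds 1 ATGGCG, inside the exon. The window of Rbm10 lies in an annotated exon of Ndufb11, which runs on the opposite strand, and holds 2 GGGCGG and 1 ATGGCG. The window of Hnrnph2, which did not pass the rule, holds 3 CCAAT and 2 GGGCGG. It overlaps an annotated exon of Gla, and the 3 CCAAT lie outside its longest stretch free of exons. No motif was found in the windows of all 3 genes that fell, and the CTCF core was found in none of the 4 windows. Of all 32851 windows of this length, 33.8% hold CCAAT, 32.7% GGGCGG, 5.73% ATGGCG and 2.07% the CTCF core. The windows hold 9 CpG for Rbmx, 20 for Rbm10, 10 for Hnrnph2 and 13 for Nono, where the median of all windows is 6.

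In Ctcf-degron cells with dTAG, no member rose or fell on the active X, and 4 of the 5 differences were positive. Of the 277 tested genes, 219 had a positive difference, so 4 of 5 is not read as a trait of the 5 genes. Rbm3 was at 51.9 FPKM with DMSO and 85.9 FPKM with dTAG, a difference of 0.72. Hnrnph2 went from 11.1 to 17.8 FPKM, a difference of 0.67, and Rbm10 from 6.59 to 10.3 FPKM, a difference of 0.61. Nono was at 56.0 and 56.4 FPKM, a difference of 0.01. Rbmx was the gene with a negative difference, -0.29, from 5.70 to 4.55 FPKM. Over all 277 tested genes the median was 0.23 and 6.14% changed in either direction, and Rbmx stood at the 4th percentile of all differences. With equal medians or after centring, Rbm3 was at 0.45 or 0.49, Hnrnph2 at 0.41 or 0.43, Rbm10 at 0.36 or 0.38, Nono at -0.26 or -0.22 and Rbmx at -0.54 or -0.53. The lineage genes Cited1 and Amot had differences of 0.76 and 0.59 here and Gpc3 of -0.08, and their part in the result was not tested.

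The level of Rbmx relative to Rbm3 was lower with dTAG than with DMSO in both degron lines. Rbm3 over Rbmx was 9.11 with DMSO and 18.9 with dTAG in the Ctcf-degron cells, and lay between 6.92 and 12.2 in the 8 groups without a degron. Rbmx over Rbm10 went from 0.864 to 0.441 in Ctcf-degron cells, from 1.87 to 2.01 in Rad21-degron cells, and lay between 1.47 and 2.50 in the groups without a degron. The Ctcf-degron cells stood apart already with DMSO. There Rbmx made up 0.0827% and Rbm3 0.753% of the summed Xa signal, while their medians over the 12 groups were 0.146% and 1.37%. Whether the tag, the line or the library preparation moves with that difference was not tested.

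On the inactive X, the 5 genes were at or near 0. Of the 60 values (5 genes in 12 groups), 49 were listed at 0, and a single one had an Xi share, the Xi part of Xa plus Xi, of 1% or more. No share reached 10%. Of all tested genes, 17.6% (XRRb XaKO) to 34.1% (XRR KO) had a share of 1% or more in a group. A share of 10% or more was held by 11.5% (XRRc XaKO) to 21.5% (XRR KO). Rbm10 was listed at 0 in all 12 groups, Rbmx and Hnrnph2 in 11, Nono in 9 and Rbm3 in 6. All 5 were at 0 in WT, as were 65.9% of the 270 tested genes. Between 45.6% (XRR KO) and 80.2% (Rad21 degron with DMSO) of tested genes were at 0 in the other groups, so a value of 0 was common.

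**Figure D3:**
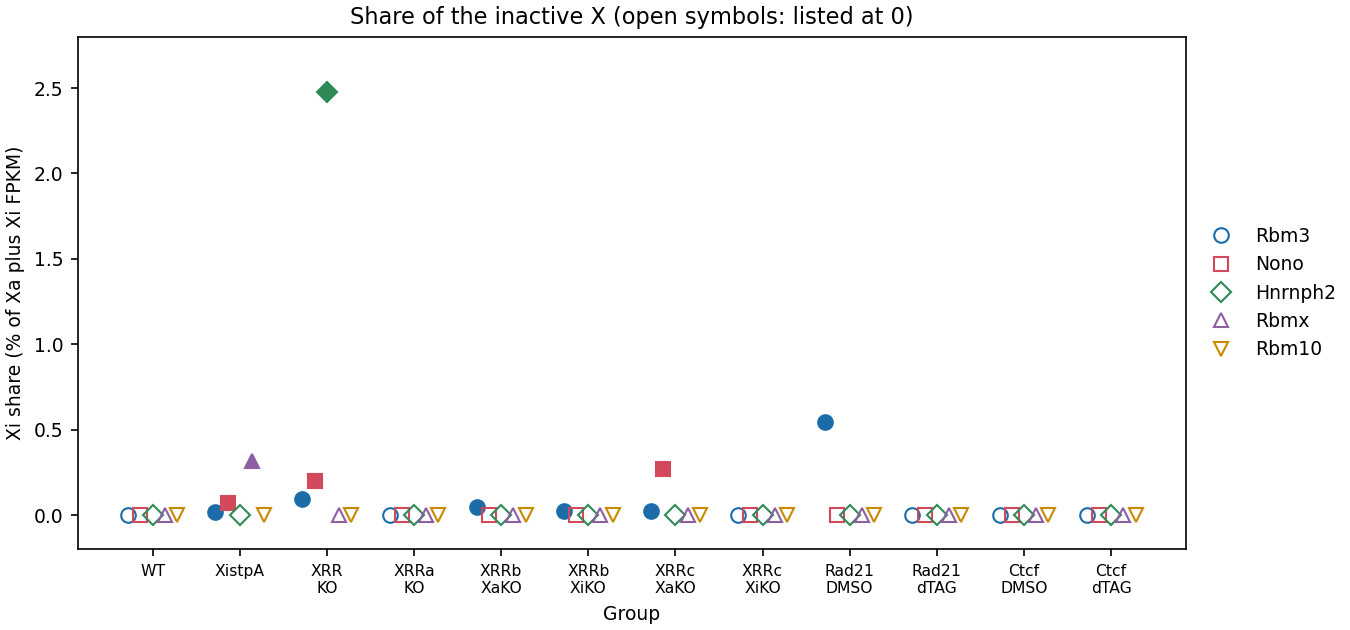
Xi share (percent of Xa plus Xi FPKM) of the 5 genes in the 12 groups. The highest point is Hnrnph2 in XRR KO at 2.48%, the next is Rbm3 in Rad21-degron cells with DMSO at 0.548%, and Rbm10 stays at 0 in every group.

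The highest share was that of Hnrnph2 in XRR KO. Hnrnph2 was at 0.576 FPKM on Xi there, 2.48% of its total, and at 0 in the other 11 groups, XistpA included. Against WT this was a log2 difference of 1.11, and Hnrnph2 rose by the size rule. In XRR KO, 15.9% of all tested genes rose on Xi. Hnrnph2 was 1 of 178 genes with an Xi value of 0 in WT. Of these, 70 were above 0 in XRR KO and 16 rose (8.99% of the 178), and Hnrnph2 had the 14th highest Xi level among them. With a pseudocount of 1 its difference was 0.66. Xist's share assigned to Xa in the same column was 1.87%. Its Xa level there was 0.0225 FPKM, below the 0.0339 FPKM of WT, while its Xi level was 1.18 FPKM against 15.5 FPKM. The higher share thus goes with less Xist on Xi. It describes Xi signal assigned to Xa, the opposite direction to Xa signal of Hnrnph2 assigned to Xi. The part of misassigned reads in the Hnrnph2 value was not tested.

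The other 10 values above 0 were smaller. Rbm3 was at 0.135 FPKM on Xi in XRR KO (0.0939%) and at 0.0383 FPKM in XistpA (0.0204%). It was also at 0.0955 FPKM in XRRb XaKO, 0.0554 FPKM in XRRb XiKO and 0.0509 FPKM in XRRc XaKO, all under 1% of its total. Nono was at 0.149 FPKM in XRR KO (0.198%), 0.0656 FPKM in XistpA (0.0705%) and 0.268 FPKM in XRRc XaKO (0.268%). Rbmx was above 0 in XistpA alone, at 0.0489 FPKM (0.317%). Set against Xist's share on Xa in the same column, Nono in XRRc XaKO (0.268%) lay above it (0.135%). So did Rbm3 in Rad21-degron cells with DMSO (0.548% against 0.273%). Rbm3 and Nono in XRR KO lay below it (1.87%), as did Rbm3 in XRRb XaKO, XRRb XiKO and XRRc XaKO. In XistpA, Xist was at 0 on Xi and gives no such share. The Xist share describes Xi signal assigned to Xa, so it does not measure Xa signal assigned to Xi. In XRR KO it also goes with less Xist on Xi. No conclusion is therefore drawn from which values lie above or below it.

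In XistpA, where Xist on Xi was listed at 0, none of the 5 genes rose on Xi, against 12.2% of all tested genes. The differences were 0.18 for Nono, 0.13 for Rbmx and 0.11 for Rbm3, and Rbm10 and Hnrnph2 stayed at 0. In XRR KO the differences of Rbm3 and Nono were 0.34 and 0.38 and did not reach the rule. In XRRa KO all 5 were at 0 on Xi, where 5.93% of genes rose. In XRRb, the line changed on Xi against the line changed on Xa gave -0.10 for Rbm3 and 0 for the other 4, and 1.92% of genes changed on Xi. In XRRc it gave -0.62 for Nono and -0.14 for Rbm3, and 2.30% changed. Nono differed by the same -0.62 between the XaKO lines of XRRb and XRRc, where 1.53% of genes changed, because it was above 0 in XRRc XaKO alone among the 4 columns.

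In Rad21-degron cells, Rbm3 was at 0.567 FPKM on Xi with DMSO and listed at 0 with dTAG. The log2 difference was -1.09, which passed the rule, while 3.24% of tested genes fell on Xi and 4.05% rose. The value with DMSO was 0.548% of the total of Rbm3. The number of reads behind it is unknown and may be small. With a pseudocount of 1, equal medians or centring, the difference lay between -0.995 and -0.65 and did not pass. The other 4 genes were at 0 on Xi under both treatments. In Ctcf-degron cells all 5 were at 0 on Xi with DMSO and with dTAG, where 0.722% of genes changed.

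Where the 5 genes lie on the chromosome was read against their 3 nearest tested genes on each side, in RefSeq gene order, a comparison chosen after values were seen. Of these 30 neighbours, 27 had an Xi share below 2% in WT. Higher shares were found for Armcx5 near Hnrnph2 (22.6%) and for Ercc6l near Nono (26.6%). Nono and Hnrnph2, both listed at 0 in WT, thus lie within 3 tested genes of a gene with a high share.

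In XRR KO, 4 of the 6 neighbours of Hnrnph2 were above 0 on Xi, where 54.4% of all tested genes were above 0 and 34.1% had a share of 1% or more. In order along the chromosome the genes are Timm8a1, Rpl36a, Gla, Hnrnph2, Armcx4, Armcx1 and Armcx5. Their Xi shares in XRR KO were 0, 7.39, 2.13, 2.48, 0, 1.68 and 43.7%. On Xi, Rpl36a was at 43.4 FPKM there, Gla at 0.105 FPKM and Armcx1 at 0.0288 FPKM. From 0 in WT, Gla and Armcx1 did not reach the size rule. Rpl36a (a ribosomal protein), Gla (the lysosomal alpha-galactosidase) and Armcx1 had 0.00758, 0 and 0% in WT and 0.0623, 0.0598 and 0.442% in XistpA. In XRRa KO, Rpl36a was at 1.48% and Gla at 0.710%, while Hnrnph2 and Armcx1 were at 0. Rpl36a has 6 near-identical copies among the GENCODE M21 transcripts, by the same rule as for the 5 genes, so its value is uncertain.

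**Figure D4:**
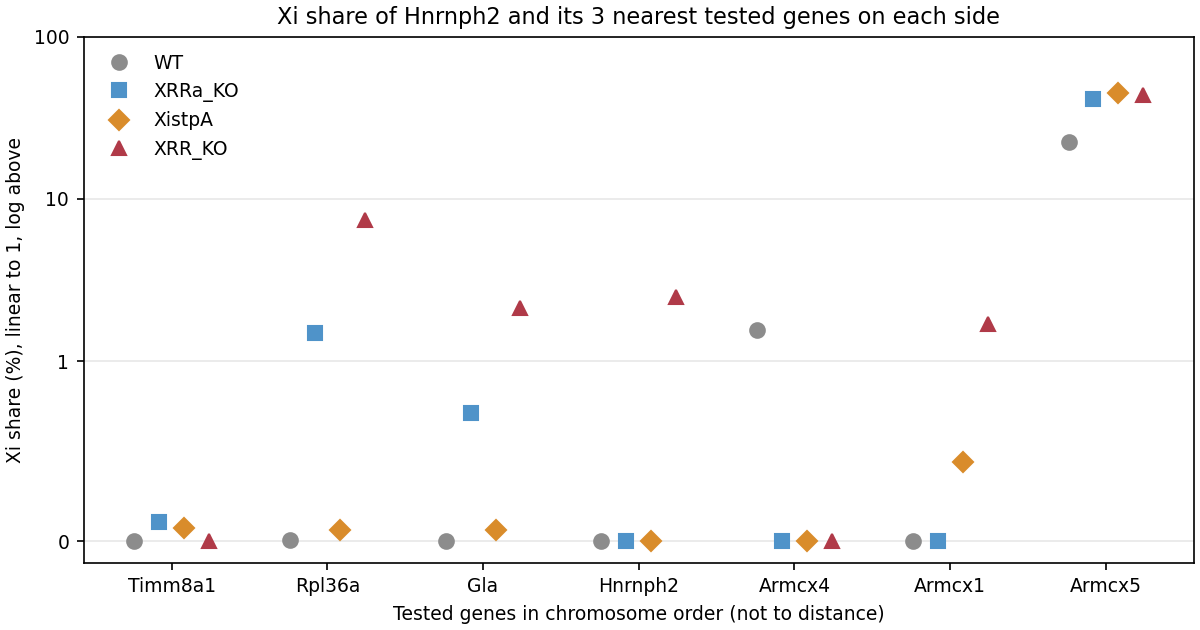
Xi share (percent, axis linear to 1 and log above) of Hnrnph2 and the 3 nearest tested genes on each side in WT, XRRa KO, XistpA and XRR KO, in chromosome order. In XRR KO, Rpl36a (7.39%), Gla (2.13%), Hnrnph2 (2.48%) and Armcx1 (1.68%) lie above 1%, and in XistpA these 4 lie below 1%.

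Gla and Hnrnph2 stand next to each other with a short gap between their annotated starts, which is shown because both had a like share in XRR KO. The gap spans chrX:134601126-134601178 (GRCm38.p6, plus strand, 53 bases) and opens with a match to GGGCGG on the reverse strand, printed in capitals.
Hnrnph2: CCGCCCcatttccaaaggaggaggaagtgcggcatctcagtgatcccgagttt

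Rbm10 stayed at 0 beside a gene that did not. Rp2h, the neighbour but one of Rbm10, had 0% on Xi in WT, 3.99% in XistpA and 24.9% in XRR KO, while Ndufb11 and Uba1, on either side of Rbm10, were at most at 0.0552% and 0.518% in any group. Around Rbm3, Wdr13 reached 2.35% in XRR KO, at 0.0402 FPKM on Xi. Porcn was at 1.99% in XRR KO and at 3.02% in XistpA. Of the 30 neighbours, 19 stayed below 2% in every group.

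Other X-linked genes of splicing, 3′ end processing and mRNA export were compared as a list of 19, of which 12 passed the filter in at least 1 table. Of the 12, 4 had an Xi share of 10% or more in every group where they were tested, and none of the 5 genes reached that share in any group. Among all 270 tested genes of the first table, 12.2% had such a share in WT and 21.5% in XRR KO, so 0 of 5 is not read as a difference from other genes. These were Gpkow, a spliceosome protein (27.6 to 59.0%), Nkap (23.3 to 52.4%), Cstf2, a cleavage stimulation factor (22.7 to 48.4%), and Zrsr2, which recognises the 3′ splice site (24.8 to 30.4% in 2 groups). Another 6, Pqbp1, Htatsf1, Rbmx2, Fam50a, Thoc2 and Ddx26b, stayed below 1% in every group, as 4 of the 5 genes did. Among all tested genes, 18.1% in WT and 34.1% in XRR KO had a share of 1% or more. Low shares are thus not read as a trait of these genes. Upf3b, of nonsense-mediated decay, ranged from 0 to 51.9% and Rbm41 from 0 to 61.0%.

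On Xi, 2 genes of the list rose in XistpA and the same 2 in XRR KO, of 11 tested, close to the 12.2% and 15.9% of all tested genes. Rbm41 rose from 0 to 1.05 FPKM in XistpA and to 2.04 FPKM in XRR KO. Upf3b rose from 4.37 FPKM to 11.8 and 11.4 FPKM. On Xa in the Rad21 degron with dTAG, 2 of 10 fell, close to the 15.0% of all tested genes, with a median of -0.59 over the 10 and -0.26 over all. Cstf2 fell from 8.48 to 2.22 FPKM, a log2 difference of -1.72, and Pqbp1, which binds spliceosome proteins, from 23.5 to 10.8 FPKM, a difference of -1.08. On Xi there, Upf3b rose by the rule from 0 to 3.67 FPKM, while its Xa level went from 10.3 to 7.33 FPKM. Its Xi share was 10% or more in the other 11 groups, so the 0 with DMSO is the value that stood apart. The number of reads behind either value is unknown. No gene of the list passed the rule in the other comparisons.

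The patterns of the 5 genes over the 12 columns were compared after centring each gene on its mean in each table, for the sum of Xa and Xi. The correlations describe 12 merged columns that share tables and scaling, and the Rad21 contrast carries much of them. Rbm3 and Hnrnph2 were the most alike of the 10 pairs, with a Pearson r of 0.93, and r was 0.91 over the 10 columns without the Rad21 table. Rbm10 and Nono reached 0.92 and 0.46 without the Rad21 table. Rbmx and Rbm10 reached 0.78 and -0.16 without that table. The median of the 10 pairs was 0.80, or 0.48 without that table, and the medians over all gene pairs were 0.18 in both.

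Among the 232 other genes tested in every table, the most like Rbmx were Pdha1 (r = 0.96), Kif4 (0.95) and Dkc1 (0.93). Pdha1 is a subunit of pyruvate dehydrogenase, and it also ranked first without the Rad21 table (r = 0.86). The most like Nono were Dkc1, the pseudouridine synthase of small nucleolar RNPs (r = 0.99), Gnl3l (0.98) and Uxt (0.98). The most like Rbm10 were Eif1ax, a translation initiation factor (r = 0.96), Pja1 (0.96) and Gm5643 (0.94). The most like Rbm3 were Morf4l2 (r = 0.94), Hnrnph2 (0.93) and Bhlhb9 (0.93), and the most like Hnrnph2 were Rbm3 (0.93), Bhlhb9 (0.92) and Pdk3 (0.91). Of these 15 places, 4 stayed among the 3 most like genes without the Rad21 table. With Xa alone in place of the sum, 11 stayed and 4 moved. Morf4l2 then ranked 6th for Rbm3 (r = 0.89), and Hnrnph2 ranked 1st.

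Some values rest on sequence that other genes share. In the GENCODE M21 transcripts, Rbm10 has 2 near-identical processed pseudogenes, Gm12799 and Gm15455 (97.9% identity over its coding transcript). Hnrnph2 has 1, Gm8775 (97.8% over 79.0%), and Nono 1, Gm8806, which also lies on the X (97.2% over 55.4%). Rbm3 and Rbmx have none that reach 95% identity over 50% of a transcript, though Rbm3-ps matches 40.4% of an Rbm3 transcript at 99.4%. The annotated span of Rbm3 overlaps the antisense gene Rbm3os by 452 bases, and that of Rbm10 overlaps Ndufb11 by 117 bases. The libraries do not mark strand, so reads in these overlaps cannot be told apart, and the counting of reads from the copies is not stated in these sources.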

How the data were processed

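RNA of 32 XEN cell samples in 12 groups was measured. The authors deposited FPKM values of X-linked genes in 4 tables, with the samples of a group merged into 1 column per allele (24 columns). The submitters' processing notes name HISAT2 2.2.0, StringTie 2.1.1, Trim Galore 0.6.4 and the build mm9. The step that sorted reads by allele is not stated there. The values hold no counts, so the depth cannot be given. Merged columns allow no test, so the limma fit planned for per-sample columns was not used.

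Differences of log2(FPKM + 0.5) were taken within a table for genes with a mean of at least 1 FPKM, and called at a size of 1. Alternatives were pseudocounts of 0.1 and 1, no filter or one of 5 FPKM, equal column medians of Xa and centring on the median Xa difference over all genes. Named are the 5 genes, Xist, list genes that passed the size rule (at most 4 per comparison and allele), and the 3 genes most correlated with each of the 5; neighbours, copies and lineage genes were added. The genes and lists were chosen with earlier results of these data known. Copies were found with minimap2 2.31, the rest was computed in Python 3.11.15, and the calling was tested on simulated data. Gene order and promoters are RefSeq GRCm38.p6, so gene coordinates in the files' build are not given. The values of 1 neighbouring gene are not reported here.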

Additional observations from a re-analysis of the deposited data

How the results depend on the processing

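Of 418 recomputed differences of the 5 genes, 409 stayed on the same side of the size rule, 6 no longer passed, 3 passed newly, and 0 that passed changed sign. No filter and a filter of 5 FPKM only choose which genes are tested, so under them no difference could move. Many of the others were at or near 0 on Xi, so 409 is not a measure of robustness. The 6 belong to Hnrnph2 on Xi in XRR KO and to Nono on Xa and Rbm3 on Xi in the Rad21 degron. With a pseudocount of 0.1, XRR KO on Xi gave 1.23 for Rbm3 and 1.32 for Nono, and XRRc on Xi gave -1.88 for Nono. With a pseudocount of 1, Hnrnph2 on Xi in XRR KO gave 0.66 and Rbm3 on Xi in the Rad21 degron -0.65. In the Rad21 degron, equal medians gave -0.72 for Nono on Xa and -0.995 for Rbm3 on Xi, and centring on the median Xa difference -0.87 and -0.84. Rbm10 in the Rad21 table had no value under a filter of 5 FPKM.

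Counts of genes changed on Xi moved with the pseudocount of 0.1 from 37 to 64 in XistpA, 46 to 75 in XRR KO, 19 to 39 in XRRa KO, 5 to 16 in XRRb, 6 to 19 in XRRc, 18 to 34 in the Rad21 degron and 2 to 12 in the Ctcf degron. A pseudocount of 1 gave 11 in XRRa KO, 3 in XRRb, 11 in the Rad21 degron and 1 in the Ctcf degron, where centring also gave 1. Counts on Xa moved with a filter of 5 FPKM from 12 to 2 in XistpA, 13 to 8 in XRR KO, 2 to 0 in XRRa KO, 8 to 2 in XRRb, 6 to 3 in XRRc, 53 to 34 in the Rad21 degron and 17 to 6 in the Ctcf degron, since fewer genes were tested, and with no filter to 6 in XRRa KO and 12 in XRRc. With equal medians or centring, XRR KO on Xa split into 6 higher and 7 lower or 7 and 4, against 3 and 10, and the Rad21 degron on Xi into 14 and 5 or 17 and 4, against 10 and 8.

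No paired analysis was possible because the columns are merged over replicates, and for the same reason no replicate was left out in turn. With no replicate values, differences between lines cannot be told apart from differences between samples. Leaving out the Rad21 table from the likeness of patterns was chosen after seeing the data, and 11 of 15 places moved.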
